A study of Mus musculus with 6 samples.

Results

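The genes described here are 10 genes of the BMP arm of TGF-beta superfamily signalling in bEnd.3 cells, taken from the gene table by symbol: the receptor genes Eng, Acvrl1 and Bmpr2, the signal-carrying Smad genes Smad1 and Smad9, and the target genes Id1, Id2, Id3, Atoh8 and Smad6. They are 10 of the 30768 genes in the table, each has 1 row, and all 10 had enough counts to be tested. bEnd.3 is an immortalised endothelial line from mouse brain, and 3 libraries came from cells with a miR-423-5p mimic and 3 from cells with a control mimic. A mimic is made synthetically and raises the amount of 1 mature microRNA in the cell. The comparison asks how an excess of this microRNA changes endothelial messenger RNA. Nothing in the labels tells whether a group's libraries were separate cultures, so the p-values may reflect technical spread alone. All results come from 1 immortalised line, and the dose and duration of the mimic were not used here.

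BMP ligands bind pairs of type I and type II receptor kinases on the cell surface, and the type I kinase then phosphorylates the signal-carrying Smads, which join Smad4 and switch on target genes in the nucleus. In endothelium the type I receptor ALK1 (Acvrl1), the type II receptor Bmpr2 and the co-receptor endoglin (Eng) carry the signal of the circulating ligands Gdf2 and Bmp10, and mutations in any of these receptor genes cause vascular disease in humans. The Id proteins are helix-loop-helix proteins without a DNA-binding region that hold E proteins away from DNA, and Smad6 is an inhibitory Smad that feeds back on the pathway.

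The sequence of the microRNA and its matches among these genes are shown first, since a direct effect of a microRNA runs through such matches. The mature sequence, from RefSeq (GRCm38.p6, chr11:77078122-77078144, minus strand), has its seed, bases 2 to 8, in capitals.
mmu-miR-423-5p: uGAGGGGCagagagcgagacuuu
The DNA match to that seed, GCCCCTC, was looked for in the 3' UTRs of all 10 genes (GENCODE M21, GRCm38, the longest UTR where several are annotated). Only Eng, of the 10 genes, had it, at 2 places in a 3' UTR of 1108 bases, and neither was followed by the A that makes the longer 8-base site GCCCCTCA. The windows below carry the match in capitals, on the plus strand of GRCm38, at chr2:32682007-32682035 and chr2:32682113-32682141.
Eng, bases 457 to 463 of the 3' UTR: gggggatccaaGCCCCTCccagcccaccc
Eng, bases 563 to 569 of the 3' UTR: atgaaaccagtGCCCCTCtgggttgtatg
A seed match was in 1 of 10 members, and in 2036 of the 13919 tested genes with a 3' UTR (14.6%). The 3' UTRs of Id3 (536 bases) and Atoh8 (1122 bases), the genes that fell, held none. A match is a stretch of letters and not a measured site.

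Among the target genes, Id3 fell 5.40-fold and Atoh8 3.07-fold in the miR-423-5p cells, while Id1, Id2 and Smad6 did not pass the test. On the input side Acvrl1 rose 1.42-fold and Smad1 1.47-fold, while Eng, Bmpr2 and Smad9 did not pass. With edgeR's quasi-likelihood test at an adjusted p under 0.05, 2 of the 10 genes rose, where 9.09% of the 18103 genes tested rose, and 2 fell, where 7.21% of all fell. The median log2 fold change was -0.15 over the 10 genes and -0.02 over all genes tested. With scaling to total counts the median of all genes shifted to -0.18, and 874 genes rose and 2569 fell, against 1646 and 1305 with TMM scaling. There 3 of the 10 genes fell (Id1, Id3 and Atoh8) and none rose. The number that rose was also 0 when any of miR-423-5p 3, control 1 and control 3 was left out. It was 1 on leaving out miR-423-5p 1 or control 2, and 3 on leaving out miR-423-5p 2. The number that fell was 1 on leaving out control 2. The difference between receptors and targets was not tested as such.

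Total counts ran from 63217696 to 78456344 per library. Endothelial markers were present and 8 of 10 rose, with a summed level of 4920 to 5320 CPM in miR-423-5p cells and 2550 to 2810 CPM in control cells, although the tight-junction gene Cldn5 was at most 0.66 CPM in any library. Of 10 fibroblast and pericyte markers 9 were tested, of which 5 fell and none rose, with a summed level of 18.1 to 26.1 CPM in miR-423-5p cells and 77.2 to 183 CPM in control cells. The 5 that fell were Col1a1, Col1a2, Col3a1, Cspg4 and Lum, and Lum had 0 counts in miR-423-5p 1 and 2. The control sum was mostly collagen, with Col1a1, Col1a2 and Col3a1 at 50.5, 55.2 and 29.2 CPM in control 1. Dcn, Pdgfra, Pdgfrb and Rgs5 were not called (log2 fold changes -2.58, -0.31, -0.31 and 0.12; edgeR adjusted p = 0.0554, 0.152, 0.228 and 0.965). Within the controls the summed level of these markers was 163, 183 and 77.2 CPM in controls 1, 2 and 3. It was lowest in control 3, where Id3 and Id1 were highest. Id2, Atoh8 and Smad6 were highest in control 2, where the sum was highest. The part of these markers in the results was not tested. In bulk RNA, fewer cells of a type and less RNA per cell cannot be told apart. Control 3 also held macrophage and neuron transcripts, such as Adgre1 at 25.1 CPM against at most 0.059 CPM elsewhere and Tubb3 at 24.5 CPM against at most 0.554 CPM. Of 6 macrophage markers 3 were tested and none was called with edgeR (3 at an unadjusted p under 0.05; DESeq2 called 1 higher). Their summed level, 707 to 987 CPM in miR-423-5p cells and 578 to 824 CPM in control cells, was mostly Cd68, at 854, 705 and 986 CPM in miR-423-5p libraries 1, 2 and 3 and 593, 577 and 754 CPM in controls 1, 2 and 3. The other 2 tested, Csf1r and Itgam, had negative log2 fold changes, -2.93 and -4.62, which did not pass (edgeR adjusted p = 0.114 and 0.151). Of 6 neuron markers 3 were tested with edgeR and 1, Nefl, rose, while DESeq2 tested 2 of them and called 1 higher and 1 lower. Their summed level was 122 to 148 CPM in miR-423-5p cells and 41.8 to 100 CPM in control cells, and Nefl alone had 121, 147 and 122 CPM in miR-423-5p libraries 1, 2 and 3 and 44.2, 40.6 and 38.8 CPM in controls 1, 2 and 3. The other 5 neuron markers were at most 0.554 CPM in any miR-423-5p library. Without control 3, Id3 and Atoh8 (log2 fold change -1.63; edgeR adjusted p = 0.0208) were still called lower and neither Acvrl1 (0.45; edgeR adjusted p = 0.0598) nor Smad1 (0.50; edgeR adjusted p = 0.0687) was called higher.

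**Figure D1:**
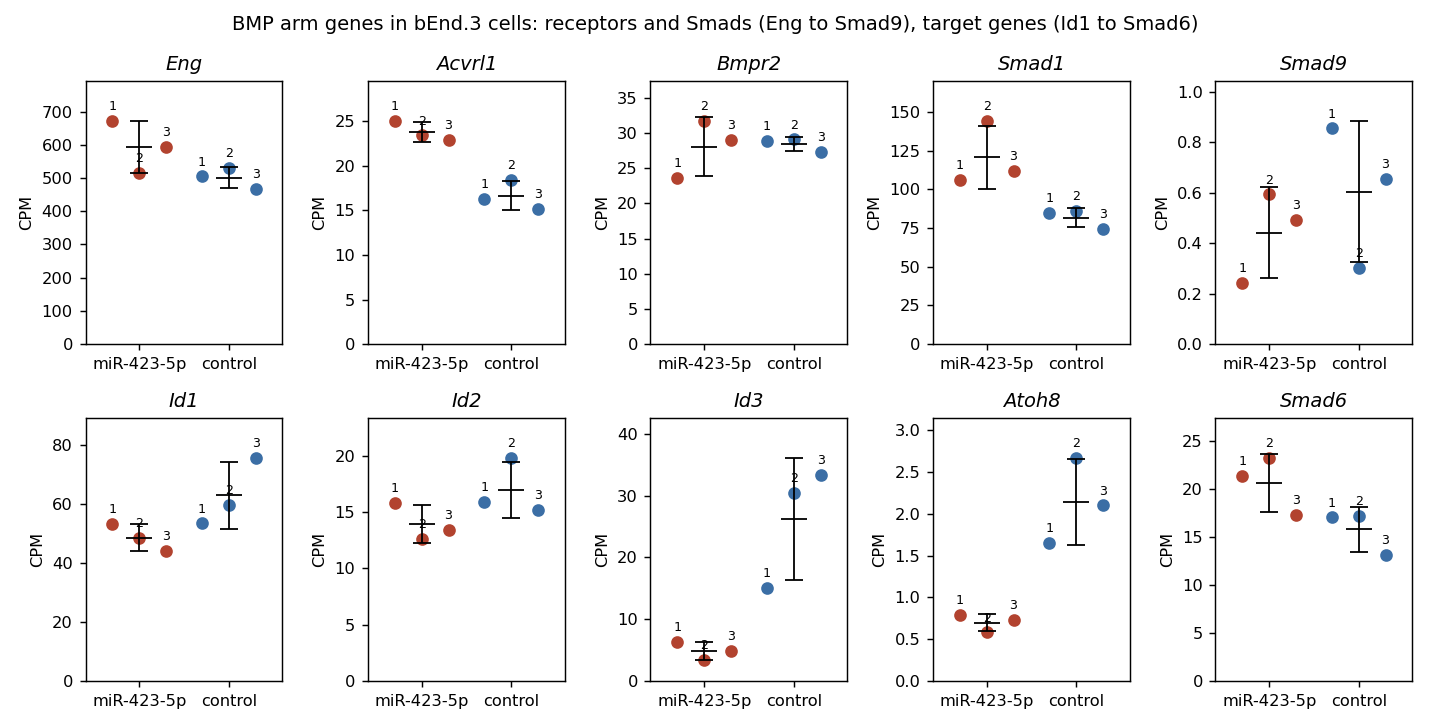
Level of each of the 10 genes in CPM (counts relative to library size; vertical axis from 0) in the 3 miR-423-5p libraries (left of each panel) and the 3 control libraries (right); points are libraries, numbered by replicate, and black bars show the mean and SD. The miR-423-5p points of Id3 (at most 6.31 CPM) and Atoh8 (at most 0.787 CPM) lie far below the controls, and those of Acvrl1 and Smad1 lie above them.

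Id3, an inhibitor of E proteins that BMP induces (ENSMUSG00000007872, chr4:136143497-136145392, plus strand), showed the largest change of the 10. It had 6.31, 3.37 and 4.91 CPM in miR-423-5p libraries 1, 2 and 3, against 15.0, 30.4 and 33.4 CPM in controls 1, 2 and 3. CPM relate each count to library size. The groups did not overlap, and control 1 stood lower than the other controls. The mean was 4.86 ± 1.47 CPM in miR-423-5p cells and 26.3 ± 9.83 CPM in control cells (SD, n = 3 each). Id3 thus differed by -2.43 ± 0.34 on the log2 scale (SE; edgeR adjusted p = 0.00453), with a 95% interval from -3.23 to -1.64. This value ran from -2.71 to -2.16 under the 14 alternative settings, and the call held in all 14. Without control 3 it was -2.22 (edgeR adjusted p = 0.0115).

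Atoh8, a helix-loop-helix transcription factor gene that responds to BMP in endothelial cells (chr6:72206177-72235577, minus strand), was scarce in both groups. It had 55, 44 and 43 counts in miR-423-5p libraries 1, 2 and 3, against 112, 195 and 154 counts in controls 1, 2 and 3. Scaled to library size these are 0.787, 0.581 and 0.728 CPM in the miR-423-5p cells and 1.65, 2.67 and 2.1 CPM in the control cells. The groups did not overlap, and the highest control was control 2. Atoh8 fell by 1.62 ± 0.29 on the log2 scale (SE; edgeR adjusted p = 0.0106; 95% interval of the log2 fold change from -2.28 to -0.95). Without control 2 it was -1.42 and no longer called (edgeR adjusted p = 0.0583), and in the other 13 settings it was called. On the log2(FPKM + 1) scale, which understates changes of scarce genes, it was -0.57.

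Id1, the most abundant Id gene in these cells (chr2:152736251-152737410, plus strand), had 53.1, 48.5 and 44.0 CPM in miR-423-5p libraries 1, 2 and 3, against 53.4, 59.6 and 75.6 CPM in controls 1, 2 and 3. The groups only just failed to overlap, since miR-423-5p 1 and control 1 were nearly equal, and control 3 was the highest library. Its log2 fold change of -0.37 ± 0.14 (SE) did not pass (edgeR adjusted p = 0.111; 95% interval from -0.70 to -0.05). It was -0.22 without control 3, which moved it by over 1.5 times, and -0.53 and called when scaled to total counts (edgeR adjusted p = 0.04).

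Id2, a further inhibitor of E proteins, had 15.8, 12.6 and 13.4 CPM in miR-423-5p libraries 1, 2 and 3, against 15.9, 19.8 and 15.2 CPM in controls 1, 2 and 3 (chr12:25093799-25097140, minus strand). The groups overlapped. On the log2 scale the difference was -0.29 ± 0.15 (SE; edgeR adjusted p = 0.218), with a 95% interval from -0.63 to 0.05, and it was negative in all 14 alternative settings and called in none.

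The make-up of the Id pool differed between the groups. Measured per length, in FPKM, the levels of Id1, Id2 and Id3 summed to 48.6, 44.3 and 38.7 in miR-423-5p libraries 1, 2 and 3 and to 58.9, 75.0 and 92.1 in controls 1, 2 and 3. Id3 made up 6.29%, 3.83% and 5.91% of that sum in the miR-423-5p libraries, against 13.8%, 22.2% and 20.7% in the controls. Id1 made up 83.3 ± 2.02% in the miR-423-5p cells and 71.7 ± 4.19% in the control cells (SD, n = 3 each). The sum and the share of Id3 did not overlap between the groups, while the share of Id2 did. TMM scaling was not applied to these FPKM values. On log2(FPKM + 0.1) the median log2 fold change over all genes tested was -0.18, so the sums may be shifted lower in the miR-423-5p libraries. The shares within a library do not depend on scaling.

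**Figure D2:**
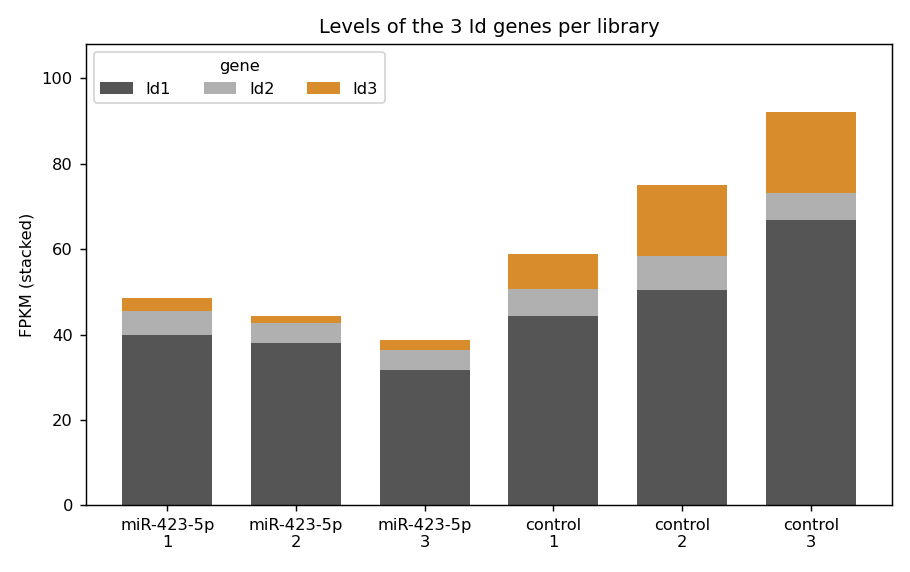
Stacked FPKM of Id1 (dark grey), Id2 (light grey) and Id3 (orange) in each library, with the 3 miR-423-5p libraries on the left and the 3 controls on the right. The orange segment of Id3 is at most 3.06 FPKM in the miR-423-5p libraries and at least 8.11 FPKM in the controls.

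Smad6, which encodes an inhibitory Smad that blocks type I BMP receptors and is itself a BMP target, stood on the other side of zero from the Id genes. It had 21.3, 23.2 and 17.3 CPM in miR-423-5p libraries 1, 2 and 3, against 17, 17.2 and 13.1 CPM in controls 1, 2 and 3 (chr9:63953076-64022059, minus strand). The groups were barely separated, between miR-423-5p 3 and control 2. Its log2 fold change of 0.39 ± 0.16 (SE) did not pass (edgeR adjusted p = 0.137; 95% interval from 0.02 to 0.76), and it was positive in all 14 alternative settings and called in none.

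Smad1, which encodes a signal-carrying Smad phosphorylated by BMP receptors (chr8:79338395-79399518, minus strand), had 106, 144 and 112 CPM in miR-423-5p libraries 1, 2 and 3, against 84.6, 86.0 and 74.5 CPM in controls 1, 2 and 3. All miR-423-5p libraries stood above all controls, with miR-423-5p 2 the highest. Smad1 rose by 0.56 ± 0.13 on the log2 scale (SE; edgeR adjusted p = 0.025; 95% interval from 0.26 to 0.86). The call was lost without miR-423-5p 3 or any single control (edgeR adjusted p from 0.0532 to 0.0811), and with total-count scaling, where the value was 0.40 (edgeR adjusted p = 0.0758). It was also lost with no filter (edgeR adjusted p = 0.0533) and with limma on log2(FPKM + 1), where the value was 0.34 (limma adjusted p = 0.126). The sign was positive in all 14 alternatives.

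Smad9, which encodes another Smad of the same kind (chr3:54755582-54801257, plus strand), was scarce in both groups. It had 17, 45 and 29 counts in miR-423-5p libraries 1, 2 and 3, against 58, 22 and 48 counts in controls 1, 2 and 3. The groups overlapped, and each had a low library. Its log2 fold change of -0.45 ± 0.52 (SE) had a 95% interval from -1.65 to 0.76 (edgeR adjusted p = 0.596). Libraries of the same group differed widely, and no difference was detected. Smad5, the remaining Smad of this kind, was not called (log2 fold change 0.06 ± 0.11, SE; edgeR adjusted p = 0.75). Of the summed FPKM of Smad1, Smad5 and Smad9, Smad1 made up 78.2%, 79.2% and 78.0% in miR-423-5p libraries 1, 2 and 3, against 72.6%, 72.4% and 70.9% in controls 1, 2 and 3, and these shares did not overlap.

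Acvrl1, which encodes the endothelial type I receptor ALK1 (chr15:101128522-101145336, plus strand), had 25.0, 23.4 and 22.9 CPM in miR-423-5p libraries 1, 2 and 3, against 16.3, 18.4 and 15.2 CPM in controls 1, 2 and 3. The groups did not overlap, and the miR-423-5p libraries lay close together. Acvrl1 rose by 0.51 ± 0.11 on the log2 scale (SE; edgeR adjusted p = 0.0214; 95% interval from 0.25 to 0.77). The call was lost on leaving out any one of miR-423-5p 1, miR-423-5p 3, control 1 and control 3 (edgeR adjusted p from 0.0581 to 0.0815). It was also lost with total-count scaling, where the value was 0.35 (edgeR adjusted p = 0.0629), and with limma on log2(FPKM + 1), where it was 0.27 (limma adjusted p = 0.0968). The sign was positive in all 14 alternatives. The 10 endothelial markers, of which 8 rose, had a median log2 fold change of 0.98, and their part in the result was not tested.

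Eng, which encodes the co-receptor endoglin and held the only seed matches shown above (chr2:32646595-32682658, plus strand), had 671, 516 and 594 CPM in miR-423-5p libraries 1, 2 and 3, against 505, 531 and 467 CPM in controls 1, 2 and 3. The groups overlapped through miR-423-5p 2, which lay below control 2. The difference of 0.24 ± 0.11 on the log2 scale (SE) did not pass (edgeR adjusted p = 0.172; 95% interval from -0.01 to 0.50). Without miR-423-5p 2 it was 0.36 and called (edgeR adjusted p = 0.0452), without miR-423-5p 1 it was 0.15, with total-count scaling it was 0.08, and with limma on log2(FPKM + 1) it was 0.05. Fpgs, which overlaps Eng on the opposite strand, had 14004 counts over all libraries against 228245 counts for Eng.

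Bmpr2, which encodes the type II BMP receptor (chr1:59763400-59879014, plus strand), had 23.6, 31.7 and 29.0 CPM in miR-423-5p libraries 1, 2 and 3, against 28.9, 29.1 and 27.3 CPM in controls 1, 2 and 3. The control libraries lay close together and the miR-423-5p libraries spread to both sides of them. No difference passed the test, at -0.02 ± 0.12 on the log2 scale (SE; 95% interval from -0.31 to 0.27; edgeR adjusted p = 0.939). Its 3' UTR of 8529 bases, the longest of the 10, held no match to the whole seed. It did hold 1 match to CCCCTCA, the seed match without its first G and followed by A. None of the other members had a match of this kind alone, and its share over all genes was not counted.

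**Figure D3:**
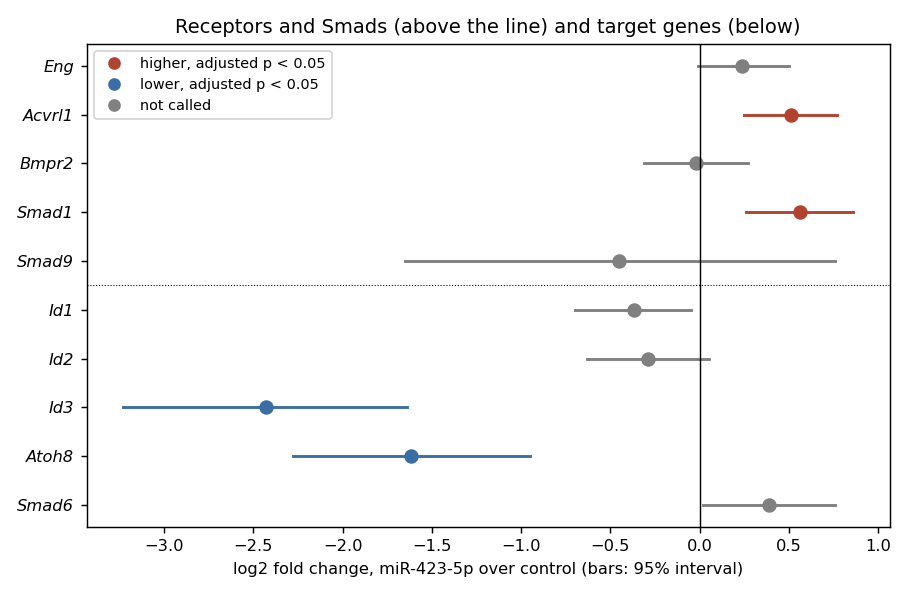
Log2 fold change of miR-423-5p over control cells (horizontal axis) for the 10 genes, with receptors and signal-carrying Smads above the dotted line and target genes below it; points are edgeR estimates, bars their 95% intervals, and colour shows the call. Acvrl1 and Smad1 lie to the right of zero, Id3 at -2.43 and Atoh8 at -1.62 lie to the left, and Smad9 has the widest interval, from -1.65 to 0.76.

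By CPM 6 of the 10 genes had no overlap between groups, 3 higher (Smad1, Smad6, Acvrl1) and 3 lower (Id1, Id3, Atoh8) in the miR-423-5p cells, where 38.4% of all genes tested did not overlap (18.8% higher and 19.6% lower). In order of level per length, Eng led in both groups, at 128 ± 15.1 FPKM in miR-423-5p cells and 122 ± 5.44 FPKM in control cells, with Id1 second at 36.6 ± 4.24 and 53.8 ± 11.5 FPKM (SD, n = 3 each). Id3 had rank 7 in the miR-423-5p cells at 2.35 ± 0.684 FPKM, below Acvrl1 and above Bmpr2, and rank 3 in the control cells at 14.6 ± 5.75 FPKM, where its range overlapped that of Smad1. In the miR-423-5p cells the ranges of the neighbours Smad6, Id2 and Acvrl1 overlapped in turn, with means of 5.62, 4.98 and 4.85 FPKM, and in the control cells those of Smad6 and Acvrl1 did. Atoh8 and Smad9 were lowest in both groups.

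The BMP arm has other genes, and 68 were listed in 6 groups by role. Of these 64 were in the table and 46 were tested, of which 5 rose and 5 fell, or 10.9% each, beside 9.09% and 7.21% of all genes tested. Their median log2 fold change was -0.12. Leaving out miR-423-5p 2 gave 4 that rose, and leaving out any other single library gave 2. Those that fell were 9 without miR-423-5p 2, 3 without control 3, 2 without miR-423-5p 3 and 1 on leaving out miR-423-5p 1, control 1 or control 2. With total-count scaling 2 rose and 5 fell.

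Of 6 tested other receptor genes, none was called with edgeR (2 at an unadjusted p under 0.05), DESeq2 called 1 of 7 lower, and limma on log2(FPKM + 1) called 2 of 6 lower. The most abundant by FPKM was Acvr1, which encodes the type I receptor ALK2, at 24.7, 31.3 and 27.1 CPM in miR-423-5p libraries 1, 2 and 3 and 31.0, 28.2 and 35.9 CPM in controls 1, 2 and 3. Bmpr1a, the type I receptor gene ALK3, was named after its values were seen. It was scarce, at 0, 0.224 and 0.491 CPM in miR-423-5p libraries 1, 2 and 3 and 1.12, 1.34 and 1.53 CPM in controls 1, 2 and 3, and its log2 fold change of -2.49 was not called (edgeR adjusted p = 0.118). It was called lower by DESeq2 (DESeq2 adjusted p = 0.0237) and by limma on log2(FPKM + 1) and log2(FPKM + 0.1) (limma adjusted p = 0.0187 and 0.0166), while edgeR's adjusted p ran from 0.059 to 0.257 over the other alternatives. Per length, the type I receptor message Acvr1 stood at 5.01 ± 0.758 FPKM in miR-423-5p cells and 6.51 ± 0.983 FPKM in control cells (SD, n = 3 each). Acvrl1 stood at 4.85 ± 0.321 FPKM in miR-423-5p cells and 3.86 ± 0.327 FPKM in control cells, while Bmpr1a was at most 0.245 FPKM in any library.

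The ligand list held 7 tested genes, of which 1, Bmp1, encodes a procollagen protease and is not a BMP ligand. Of the 6 tested ligand genes, which did not include Gdf2 or Bmp10, Bmp8b fell and none rose. Bmp8b had 3, 2 and 6 counts in miR-423-5p libraries 1, 2 and 3 against 24, 20 and 36 counts in controls 1, 2 and 3. The call on these few counts (edgeR adjusted p = 0.0322) was lost on leaving out any single library but miR-423-5p 3 (edgeR adjusted p from 0.0623 to 0.113). Bmp4, named after its values were seen, was the most abundant ligand message per length, at 152 ± 13.6 FPKM in miR-423-5p cells and 184 ± 9.89 FPKM in control cells (SD, n = 3 each). It had 430, 367 and 376 CPM in miR-423-5p libraries 1, 2 and 3 against 402, 428 and 421 CPM in controls 1, 2 and 3. By CPM the groups of Bmp4 overlapped, and its log2 fold change was -0.09 ± 0.086 (SE; edgeR adjusted p = 0.495).

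Of 6 tested extracellular antagonist and modulator genes, Grem1 and Fstl1 fell and none rose. Grem1 encodes gremlin, a secreted protein that binds BMP ligands, and had 0.115, 0.106 and 0.237 CPM in miR-423-5p libraries 1, 2 and 3 against 2.2, 2.54 and 0.943 CPM in controls 1, 2 and 3. The miR-423-5p values rest on 8, 8 and 14 counts in libraries 1, 2 and 3. The groups did not overlap and control 3 was the lowest control. Grem1 fell by 3.64 ± 0.52 on the log2 scale (SE; edgeR adjusted p = 0.00482), and the call held in all 14 alternatives. The summed fibroblast and pericyte markers, given above, were likewise lower in the miR-423-5p cells and lowest among the controls in control 3, and their part in the result was not tested. Fstl1, a secreted glycoprotein gene of the follistatin-like family, had 112, 135 and 120 CPM in miR-423-5p libraries 1, 2 and 3 against 153, 173 and 148 CPM in controls 1, 2 and 3. Its groups did not overlap, and it fell 1.29-fold (edgeR adjusted p = 0.0413, and from 0.0541 to 0.154 without any single library but miR-423-5p 2).

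Of 14 tested other Smads and regulators of Smads, Fkbp1a and Smurf1 rose and Smad7 fell. Fkbp1a encodes FKBP12, a small protein that binds type I receptors and holds them inactive, and had 1010, 900 and 1020 CPM in miR-423-5p libraries 1, 2 and 3 against 536, 496 and 406 CPM in controls 1, 2 and 3. Every miR-423-5p library stood well above every control. It rose 2.04-fold, or 1.03 ± 0.12 on the log2 scale (SE; edgeR adjusted p = 0.00218), and the call held in all 14 alternatives. Smad7, the inhibitory Smad gene of both the BMP and the TGF-beta arm, had 12.9, 13.9 and 11.3 CPM in miR-423-5p libraries 1, 2 and 3 against 16.9, 18.5 and 17.7 CPM in controls 1, 2 and 3. Its groups did not overlap. It fell 1.40-fold (edgeR adjusted p = 0.0321, and from 0.076 to 0.125 without any single library but miR-423-5p 2), while the other inhibitory gene, Smad6, had the opposite sign. Smurf1, a ubiquitin ligase gene for receptors and Smads, rose 1.29-fold (edgeR adjusted p = 0.0213, and from 0.0531 to 0.091 without any single library but miR-423-5p 2). With total-count scaling Smurf1 was at 0.21 on the log2 scale and not called (edgeR adjusted p = 0.102).

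Of 8 tested other target genes, Dlx3 rose and none fell. This homeobox gene had 2.18, 2.03 and 1.68 CPM in miR-423-5p libraries 1, 2 and 3 against 1.15, 0.713 and 0.984 CPM in controls 1, 2 and 3, and the call was lost without any single library (edgeR adjusted p = 0.04 with all libraries, and from 0.0664 to 0.136). DESeq2 called 3 of 12 target genes higher and 1 lower. Id4, Hey1, Hey2 and Tmem100, known as BMP targets in other settings, had too few counts to be tested, and none exceeded 0.683 CPM in any library. Id4, named after its values were seen, had 0 counts in all miR-423-5p libraries and 16, 7 and 26 counts in controls 1, 2 and 3.

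Of the 5 helix-loop-helix genes whose proteins pair with Id proteins or with E proteins, 2 rose and 1 fell. Lyl1, a blood and endothelial transcription factor gene, had 30.9, 21.7 and 28.0 CPM in miR-423-5p libraries 1, 2 and 3 against 14.6, 16.4 and 14.3 CPM in controls 1, 2 and 3. Its groups did not overlap, and it rose 1.78-fold (edgeR adjusted p = 0.011, and 0.0546 without control 1). Of the 3 E protein genes, Tcf12 did not pass (log2 fold change 0.10; edgeR adjusted p = 0.752). Tcf4 rose 1.35-fold (edgeR adjusted p = 0.0369, and from 0.0547 to 0.128 without any single library but miR-423-5p 2), and Tcf3 fell 1.40-fold (edgeR adjusted p = 0.0388, and from 0.069 to 0.161 without any single library but control 3). With total-count scaling Tcf4 was not called (log2 fold change 0.28; edgeR adjusted p = 0.149).

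Of the 46 tested pathway genes, 9 had a seed match in the 3' UTR (19.6%) and 6 had one of the 8-base kind (13%), where 14.6% and 4.22% of all tested genes with a 3' UTR did. These shares were not matched for 3' UTR length, and a longer 3' UTR has more room for a match. Bmp1, which is not a BMP ligand, is among the 46, the 9 and the 6, with a 3' UTR of 5191 bases. Of the 10 called, 4 had a match, of which 2 fell (Bmp8b and Fstl1) and 2 rose (Smurf1 and Dlx3). The matches of Bmp8b, Fstl1 and Smurf1 were of the 8-base kind. The other 6 called genes, Grem1, Smad7, Fkbp1a, Lyl1, Tcf3 and Tcf4, had none, and Bmpr1a, which edgeR did not call, had 1.

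**Figure D4:**
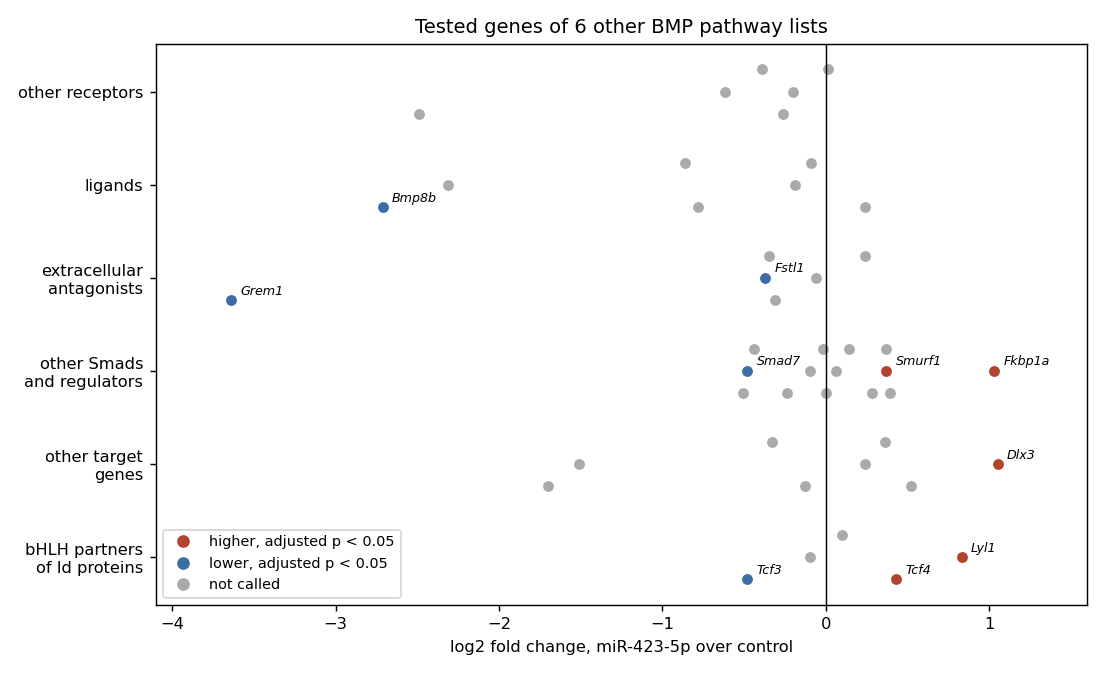
Log2 fold change of miR-423-5p over control cells (horizontal axis) for the 46 tested genes of the 6 other BMP pathway groups (vertical axis; Bmp1 is drawn among the ligands), where each point is a gene and called genes are coloured and named. Called genes lie on both sides of zero, from Grem1 at -3.64 to Dlx3 at 1.05.

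Windows around the RefSeq start (GRCm38.p6, 250 bases before to 50 after) were read for the 8 genes with an entry, which leaves out Id1 and Acvrl1. The RefSeq start is also the gene start printed here for Atoh8, Smad6, Smad9 and Eng. It lies 1048 bases downstream of that start for Id2, 879 for Bmpr2, 325 for Id3 and 90 for Smad1, so the windows of Id2, Bmpr2 and Id3 lie wholly inside the printed gene. A GC-rich element bound by Smad1 and Smad5, GGCGCC, and CAGACA, which holds the AGAC of the Smad box, were searched on both strands, and neither lies within the other. GGCGCC was found once each in the windows of Id2, Smad9 and Bmpr2, and in 11.9% of all 32851 RefSeq windows. CAGACA was found in none of the 8 and in 21% of all windows. The palindrome GTCTAGAC, a classical Smad site that shares AGAC with CAGACA, was searched after the sequences had been read and was found in Smad6 alone of the 8, and in 0.213% of all windows. The stretches below show these matches in capitals, in the direction of the gene, at chr12:25096301-25096340 (minus strand), chr1:59764157-59764196 (plus strand), chr3:54755514-54755553 (plus strand) and chr9:64022045-64022074 (minus strand).
Id2: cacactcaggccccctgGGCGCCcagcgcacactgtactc
Bmpr2: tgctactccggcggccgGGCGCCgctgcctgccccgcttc
Smad9: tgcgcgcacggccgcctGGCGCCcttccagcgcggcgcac
Smad6: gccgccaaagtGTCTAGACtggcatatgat
The windows of Id3 and Atoh8, the genes that fell, held none of these motifs, and the window of Id3 does not cover the bases before its printed start.

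The genes whose values over the 6 libraries lay nearest to each called gene were sought among genes of 10 CPM or more on average. Distance was the root mean square difference of log2(CPM + 0.5) after centring each gene. The added 0.5 understates changes of scarce genes, above all Atoh8, which was at most 2.67 CPM in any library. Nearest to Id3 were the kinase gene Sbk1 (0.49) and the chemokine genes Ccl4 (0.52) and Cxcl10 (0.52), with log2 fold changes of -1.68, -1.77 and -1.64. Nearest to Atoh8 on this scale were the antiviral GTPase gene Mx2 (0.15), Gnpda1 (0.16) and the stress gene Sesn2 (0.16). Their log2 fold changes of -1.01, -1.19 and -1.05 were smaller in size than the -1.62 of Atoh8. Nearest to Smad1 were Mindy2 (0.027), Mtdh (0.036) and Chrm3 (0.042), and nearest to Acvrl1 were Nudcd2 (0.036), Tor4a (0.037) and Slc25a3 (0.038). On this scale distances were larger for Id3 than for the other 3 genes.

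**Figure D5:**
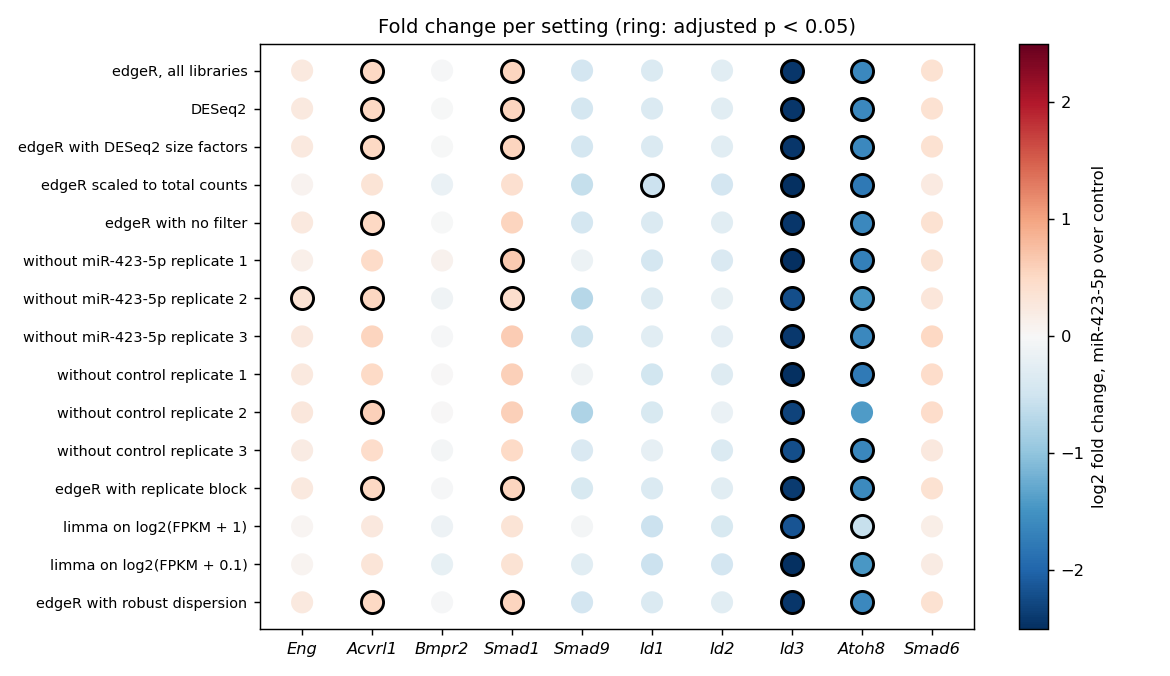
Log2 fold change of miR-423-5p over control cells (colour) for the 10 genes (columns) under edgeR with all libraries and the 14 alternative settings (rows), with a black ring where the adjusted p is under 0.05. Id3 is blue and ringed in every row, Atoh8 is ringed in every row but the one without control 2, and the rings of Acvrl1 and Smad1 come and go while their colour stays on the red side.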

How the data were processed

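Poly(A)-selected RNA from 6 bEnd.3 libraries, made with dUTP strand marking, was sequenced in pairs, per the labels' protocols. For each gene and library the authors deposited a whole-number count and an FPKM value, per the file headers. The submitters' processing notes list cutadapt 1.9, HISAT2 2.2.1, StringTie 2.1.6, DESeq2, edgeR and GRCm38 without assigning roles. How reads were counted, and on which strand, is not given in the sources used here; values of overlapping genes are therefore uncertain. Coordinates are those of the table.

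The deposited counts of all 30768 genes were fitted with edgeR 4.0.16 in R 4.3.3 (TMM scaling, filterByExpr, the quasi-likelihood F-test) with the group as the only term. This left 18103 genes, and Benjamini-Hochberg adjustment ran over all of them at a threshold of 0.05. SEs were derived from the F statistic, and CPM use TMM-adjusted library sizes. For counting error alone, a library with 0 counts may hold up to 3, which is 0.0396 to 0.0508 CPM. The 14 alternatives were DESeq2 1.42.0, its size factors, total-count scaling, no filter, leaving out each library, a replicate block, limma 3.58.1 on log2(FPKM + 1) and on log2(FPKM + 0.1), and edgeR's robust dispersion, which was chosen after seeing the data. Every pair of libraries differed by more than sampling noise. The fit was tested on simulated data.

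The members and gene lists were chosen with earlier results of these data known. All 10 members are described. From each other pathway list up to 4 called genes by smallest p are named, or its most abundant tested gene where none was called; marker lists are given by counts and sums, and their genes named in the text were chosen after their values were seen. The 3 nearest genes of each called member leave out clone-type symbols.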

Additional observations from a re-analysis of the deposited data

How the results depend on the processing

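No sign reversed for a called gene under any of the 14 alternatives. The number of BMP arm genes that rose, 2 with edgeR on all libraries, was 1 with no filter and 0 with total-count scaling or with limma on log2(FPKM + 1) or log2(FPKM + 0.1), and it ran from 0 to 3 when single libraries were left out. The number that fell, 2, ran from 1 to 2 when single libraries were left out. Of the other BMP pathway genes 5 rose and 5 fell. With no filter 3 rose and 2 fell, with total-count scaling 2 rose, with limma on log2(FPKM + 1) 3 rose and on log2(FPKM + 0.1) 2 rose, and DESeq2 called 9 lower. When single libraries were left out the number that rose ran from 2 to 4 and the number that fell from 1 to 9. The cause was not tested. Over all genes limma on log2(FPKM + 1) called 770 higher and 2389 lower.

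The groups share replicate numbers. Deviations of same-numbered libraries from their group means correlated at 0.13, 0.01 and 0.08 across genes, and those of differently numbered libraries at -0.13 to 0.07. The best match of miR-423-5p 1 and 3 was the control of the same number, and that of miR-423-5p 2 was control 3 (0.04). All these values were small, so the numbers were not taken as pairs. With a replicate block 2 of the 10 genes rose and 2 fell, and 5 of the other pathway genes rose and 4 fell. Over all genes the block gave 1369 higher and 1042 lower. Counts were low for Smad9, Atoh8, Grem1, Dlx3 and Bmp8b, at no more than 58, 195, 185, 154 and 36 in any library.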
